A study of Mus musculus with 16 samples.

Results

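Cdk1, Cdk2 and Cdk4, the catalytic subunits that drive the cell cycle, and E2f7, an atypical E2F factor that represses E2F target genes, were followed in embryonic mouse ventricles lacking the transcription factor Atf4 in cardiomyocytes. The 4 genes were chosen by symbol, out of 5921 genes held, and all 4 passed the filter on low values, a mean of at least 1 TPM over the 16 libraries, that left 2620 genes for testing. TPM is the share of a library's transcripts that a gene takes, scaled for gene length and to the same total in every library. RNA was measured by RNA-seq in ventricles at embryonic stage E11.5 from a pair of conditional lines, one with exon 2 to exon 3 of Atf4 flanked by loxP sites (the exon 2-3 line, Batch1 in the labels) and one with exon 2 alone flanked (the exon 2 line, Batch2). Each line gave 4 conditional knockout (cKO) and 4 control libraries, labelled as biological replicates. Recombination was driven by Xmlc2-Cre, a Cre transgene under a Xenopus myosin light chain promoter active in cardiomyocytes. By design, the other cells of the ventricle keep Atf4. All 16 libraries carry the background label C57BL/6 and the genotype label WT, and whether the controls carry the floxed alleles or Cre is not stated in the sources used here. Line and batch coincide, so a difference between the lines cannot be told apart from a difference between the batches. Atf4 itself lies on a chromosome not analysed here, so neither its loss in cardiomyocytes nor its presence in other cells was checked.

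Cyclin-dependent kinases act only when bound to a cyclin. Cdk4 pairs with D-type cyclins and starts the phosphorylation of the retinoblastoma protein in G1, which frees E2F factors to switch on S phase genes. Cdk2 pairs with cyclin E and then cyclin A to carry cells into and through S phase, and Cdk1 pairs with cyclin A and cyclin B to drive mitosis. Transcription of Cdk1 is periodic: it is held down in resting and G1 cells by the DREAM complex and rises toward G2, whereas Cdk2 and Cdk4 transcripts are steadier and their kinases are controlled mainly by cyclins and inhibitors. E2f7 is itself an E2F target, rises in S phase and then represses E2F targets, and in human cells it has been described as a p53 target. Embryonic ventricles at this stage grow largely by division of cardiomyocytes.

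To set the periodic kinase beside the steadier ones, the RefSeq sequence (GRCm38.p6) of the bases before each start is shown. It reads 5′ to 3′ on the gene's strand. Capitals mark 4 kinds of motif, searched on both strands: the cell cycle genes homology region (CHR, TTTGAA or TTCGAA), to which DREAM binds; the CCAAT box, bound by NF-Y; an E2F motif (TTTCGCGC, TTTCCCGC, TTTGCCGC or TTTGGCGC); and the E-box CACGTG, bound by Myc and USF proteins, which was searched after the Cdk4 sequence had been seen.
Cdk1 (chr10:69352913-69353162, minus strand): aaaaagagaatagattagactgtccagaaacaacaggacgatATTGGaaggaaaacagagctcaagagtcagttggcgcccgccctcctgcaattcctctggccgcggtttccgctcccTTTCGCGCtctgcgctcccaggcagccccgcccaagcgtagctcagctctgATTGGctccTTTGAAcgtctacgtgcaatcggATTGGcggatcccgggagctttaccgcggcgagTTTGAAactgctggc
Cdk2 (chr10:128705052-128705301, minus strand): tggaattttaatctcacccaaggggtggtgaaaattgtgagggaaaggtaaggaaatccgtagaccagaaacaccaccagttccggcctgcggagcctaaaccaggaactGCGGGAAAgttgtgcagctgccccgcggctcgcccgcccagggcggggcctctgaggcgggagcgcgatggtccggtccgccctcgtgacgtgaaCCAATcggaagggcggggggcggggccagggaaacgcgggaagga
Cdk4 (chr10:127063285-127063534, plus strand): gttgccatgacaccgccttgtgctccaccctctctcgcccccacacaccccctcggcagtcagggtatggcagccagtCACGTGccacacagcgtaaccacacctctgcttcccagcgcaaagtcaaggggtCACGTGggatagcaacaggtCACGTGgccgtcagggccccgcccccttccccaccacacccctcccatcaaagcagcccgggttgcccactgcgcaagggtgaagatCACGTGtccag
E2f7 (chr10:110745189-110745438, plus strand): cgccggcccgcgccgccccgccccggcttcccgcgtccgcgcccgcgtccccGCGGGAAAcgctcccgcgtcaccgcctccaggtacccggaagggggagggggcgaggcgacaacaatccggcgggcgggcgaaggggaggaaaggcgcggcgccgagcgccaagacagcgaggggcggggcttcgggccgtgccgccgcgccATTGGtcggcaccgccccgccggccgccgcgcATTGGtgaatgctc

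The Cdk1 stretch held 2 CHR matches, both TTTGAA on the gene's strand, 71 to 66 and 15 to 10 bases before the start. It also held 3 CCAAT boxes in reverse, which read ATTGG here, and 1 E2F motif, TTTCGCGC, 131 to 124 bases before the start. No CHR match was found in the same window of Cdk2, Cdk4 or E2f7. Cdk2 had 1 CCAAT box, 45 to 41 bases before the start, and 1 reversed E2F motif, and E2f7 had 2 reversed CCAAT boxes and 1 reversed E2F motif. Cdk4 had none of these and 4 E-boxes. GC content was 56.4% for Cdk1, 63.2% for Cdk2, 64.4% for Cdk4 and 79.2% for E2f7. Among 32851 RefSeq promoter windows of this length, 17.1% held a CHR match, 33.8% a CCAAT box, 1.86% an E2F motif and 6.02% the E-box. The decamer of the p53 response element was not found in any of the 4 windows and occurred in 7.13% of all windows. These matches describe letters in a window, not binding. Bases after the start were not searched.

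All 4 genes lie on chromosome 10 (GRCm38). Cdk1 spans 69335146 to 69352912 on the minus strand and overlaps no other gene held. Cdk2 (128697938 to 128705051, minus strand) overlaps Pmel on the plus strand along its whole length, but Pmel averaged 0.466 TPM. Cdk4 (127063535 to 127067288, plus strand) shares 2 bases with Tspan31 on the minus strand, which averaged 90.9 TPM. E2f7 (110745439 to 110787384, plus strand) overlaps Gm51780 on the minus strand, which averaged 0.0423 TPM. Whether the counting used strand is not given in the sources used here.

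The kinases differed widely in level. Per length, in mean TPM over the 16 libraries, Cdk4 stood at 537, Cdk2 at 68.1, Cdk1 at 55.9 and E2f7 at 11.2. Of the 2620 genes tested, 51 had a higher mean than Cdk4, 380 than Cdk2, 473 than Cdk1 and 1556 than E2f7. Cdk4 was the highest and E2f7 the lowest of the 4 in every library. Cdk1 and Cdk2 were neighbours in this order: their TPM ranges overlapped in the exon 2-3 controls, and in the other 3 groups every library had more Cdk2 than the highest Cdk1 value.

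**Figure D1:**
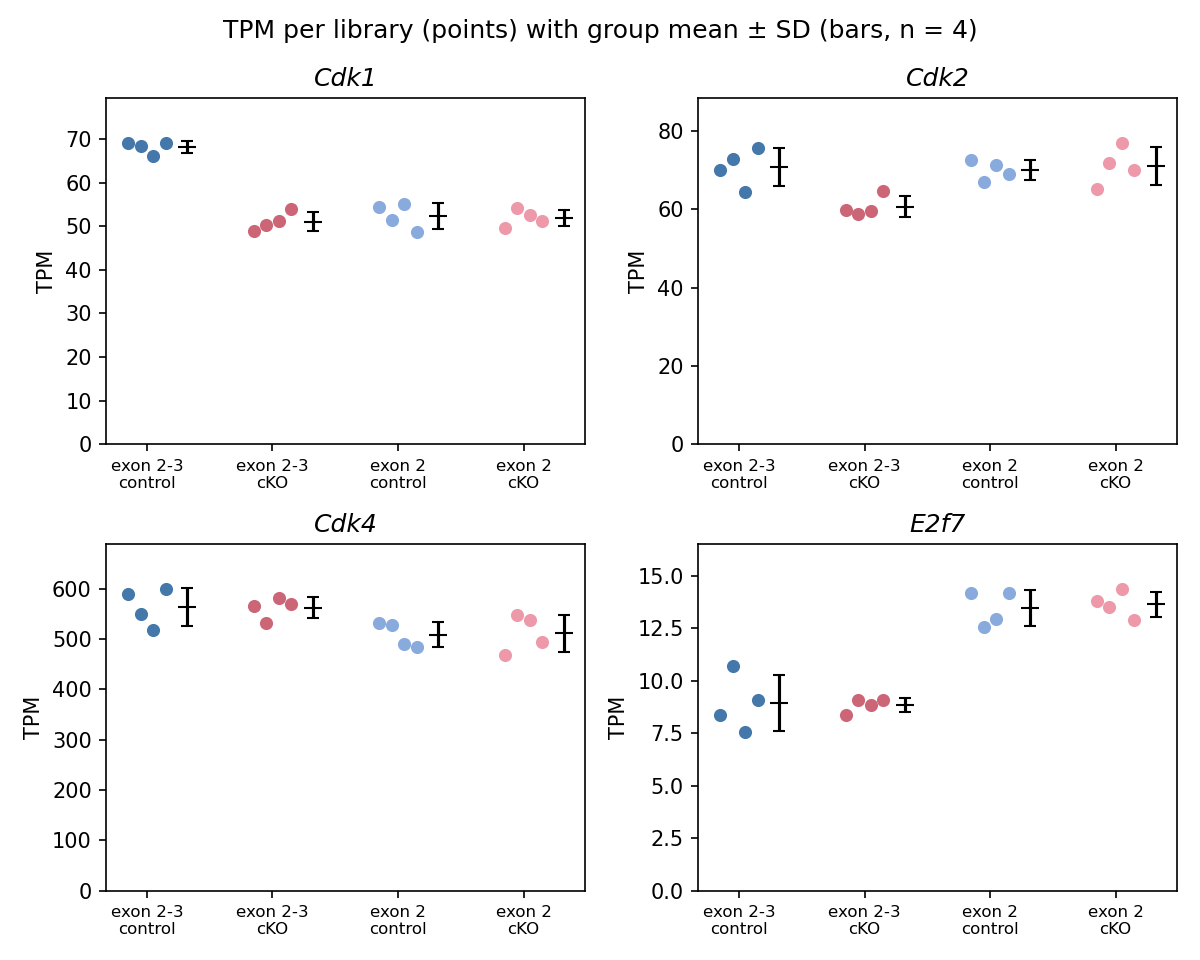
TPM of Cdk1, Cdk2, Cdk4 and E2f7 in each library (points) of the 4 groups, with the mean and SD (n = 4) beside them and each vertical axis starting at 0. Cdk1 in the exon 2-3 cKO lies between 48.9 and 54.1 TPM, below all 4 controls of that line, while Cdk4 and E2f7 overlap between cKO and control in both lines.

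Cdk1, the mitotic kinase, was lower in every cKO library of the exon 2-3 line than in any control. The control libraries 1 to 4 had 69.1, 68.4, 66.2 and 69.0 TPM (68.2 ± 1.35, SD, n = 4), and the cKO libraries had 48.9, 50.2, 51.1 and 54.1 TPM (51.1 ± 2.2, SD, n = 4). The 4 controls lay close together, and the groups did not overlap. The mean fell by 25.1%, and the difference in log2(TPM + 1), the scale of all tests here, was −0.41 (SE 0.049, 95% interval −0.52 to −0.30, limma adjusted p = 0.00143). Fold changes on this scale understate changes of low genes. Of all genes tested, 6.72% were called at an adjusted p under 0.05, 2.56% as lower and 4.16% as higher, and 54 genes (2.06%) had a more negative difference than Cdk1. The share of these calls that were higher depended on the scaling, at 61.9% here, 50.5% after quantile normalisation and 41.4% after centring each library on its median gene, and Cdk1 was called lower under all of them. All cKO libraries were below all controls for 5.31% of genes. In bulk tissue, fewer cells of a type and less RNA per cell cannot be told apart.

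Cdk2, the S phase kinase, was lower on average in the same hearts, but the difference did not pass the test. Controls had 70.1, 72.9, 64.3 and 75.7 TPM (70.7 ± 4.86, SD, n = 4) and cKO libraries 59.7, 58.7, 59.6 and 64.7 TPM (60.7 ± 2.71, SD, n = 4). The groups overlapped, since cKO replicate 4 lay above control replicate 3. The mean differed by −14.2%, and the log2 difference was −0.22 (SE 0.061, 95% interval −0.35 to −0.080), with a limma adjusted p of 0.0680. The call depended on the processing: the limma adjusted p was 0.00421 after quantile normalisation, 0.00123 after median centring, 0.0128 with array weights, 0.0293 when both lines were fitted together and 0.0200 without control replicate 3. The log2 difference was negative under each of the 18 alternatives.

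Cdk4, the G1 kinase, had nearly the same mean in cKO and control. Controls had 589, 549, 517 and 599 TPM (563 ± 37.6, SD, n = 4), and cKO libraries had 566, 533, 581 and 569 TPM (562 ± 20.7, SD, n = 4). The groups overlapped throughout. The log2 difference was −0.0016 (SE 0.058, 95% interval −0.13 to 0.13, limma adjusted p = 0.992), and its sign turned under other scalings, with 0.058 after quantile normalisation. E2f7, the repressor, had 8.39, 10.7, 7.55 and 9.09 TPM in controls (8.94 ± 1.34, SD, n = 4) and 8.38, 9.06, 8.84 and 9.06 TPM in cKO libraries (8.84 ± 0.320, SD, n = 4). The 4 cKO values sat inside the range of the controls. Its log2 difference was −0.0055 (SE 0.099, 95% interval −0.23 to 0.21, limma adjusted p = 0.986), an interval wider than that of Cdk4.

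None of the 4 genes passed the test in the exon 2 line, and cKO and control libraries overlapped for each. Cdk1 had 54.4, 51.6, 55.1 and 48.6 TPM in controls (52.4 ± 2.98, SD, n = 4) and 49.7, 54.1, 52.7 and 51.1 TPM in cKO libraries (51.9 ± 1.91, SD, n = 4). The log2 difference of Cdk1 was −0.013 (SE 0.058, 95% interval −0.14 to 0.11), so a fall of the size seen in the exon 2-3 line lies outside the interval. Cdk2 had 72.6, 67.0, 71.4 and 69.0 TPM in controls (70.0 ± 2.51, SD, n = 4) and 65.2, 71.8, 76.9 and 70.0 TPM in cKO libraries (71.0 ± 4.81, SD, n = 4), a log2 difference of 0.018 (95% interval −0.11 to 0.15). The lowest and the highest Cdk2 value of this line were both from cKO libraries.

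Cdk4 had 533, 528, 491 and 484 TPM in the controls of the exon 2 line (509 ± 25.2, SD, n = 4) and 467, 547, 537 and 494 TPM in its cKO libraries (512 ± 37.3, SD, n = 4). The log2 difference was 0.0055 (95% interval −0.14 to 0.15). E2f7 had 14.2, 12.5, 13.0 and 14.2 TPM in controls (13.5 ± 0.849, SD, n = 4) and 13.8, 13.5, 14.4 and 12.9 TPM in cKO libraries (13.7 ± 0.604, SD, n = 4), a log2 difference of 0.018 (95% interval −0.14 to 0.18). The limma adjusted p was 0.999 for all 4 genes. In this line 0.0763% of genes, 2 in number, were called in either direction, and 84 had an unadjusted limma p under 0.05; cKO and control libraries did not overlap for 1.83% of genes.

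The cKO effect on Cdk1 itself differed between the lines. The effect in the exon 2-3 line minus that in the exon 2 line was −0.40 in log2 (SE 0.070, 95% interval −0.55 to −0.25, limma adjusted p = 0.00437), where 2.37% of genes were called in either direction and 0.763% as more negative; 67.7% of these calls were more positive, against 53.4% after quantile normalisation and 52.0% after median centring. For Cdk2 this difference was −0.23 (SE 0.084, 95% interval −0.41 to −0.057, limma adjusted p = 0.169) and was not called. It was called after quantile normalisation (limma adjusted p = 0.0119), median centring (limma adjusted p = 0.00180) and array weights (limma adjusted p = 0.0280). For Cdk4 it was −0.0071 (95% interval −0.19 to 0.18) and for E2f7 −0.024 (95% interval −0.28 to 0.23).

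**Figure D2:**
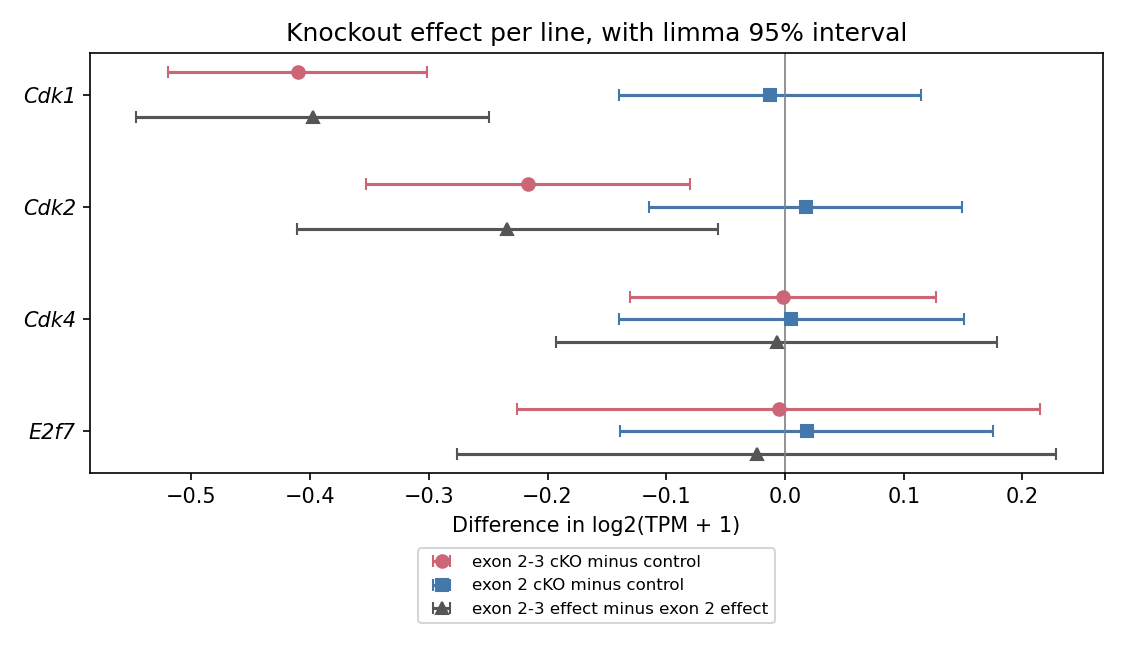
Difference in log2(TPM + 1), cKO minus control, for the 4 genes in each line, with 95% intervals from limma (8 libraries a line). The interval of Cdk1 in the exon 2-3 line runs from −0.52 to −0.30, and all 4 intervals of the exon 2 line include 0.

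Ratios within a library set the periodic kinase against the steadier ones, free of any scaling of that library. In the exon 2-3 controls Cdk1 was 0.986, 0.938, 1.03 and 0.912 of Cdk2 (mean 0.966 ± 0.0520, SD, n = 4), and in the cKO libraries 0.818, 0.855, 0.858 and 0.835 (mean 0.842 ± 0.0185, SD, n = 4). Every cKO ratio was below every control ratio. The same held for Cdk1 over Cdk4, which went from 0.121 ± 0.00599 to 0.0909 ± 0.00435, and for Cdk2 over Cdk4, which went from 0.126 ± 0.00571 to 0.108 ± 0.00493 (SD, n = 4). Each of these 3 ratios gave a two-sided exact permutation p of 0.0286, the smallest that 4 against 4 libraries allow, and 0.0571 after Benjamini-Hochberg adjustment over the 6 ratio comparisons. So the exact test cannot reach an adjusted p under 0.05 for them here. How many other genes separate in this way relative to Cdk2 or Cdk4 was not counted.

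**Figure D3:**
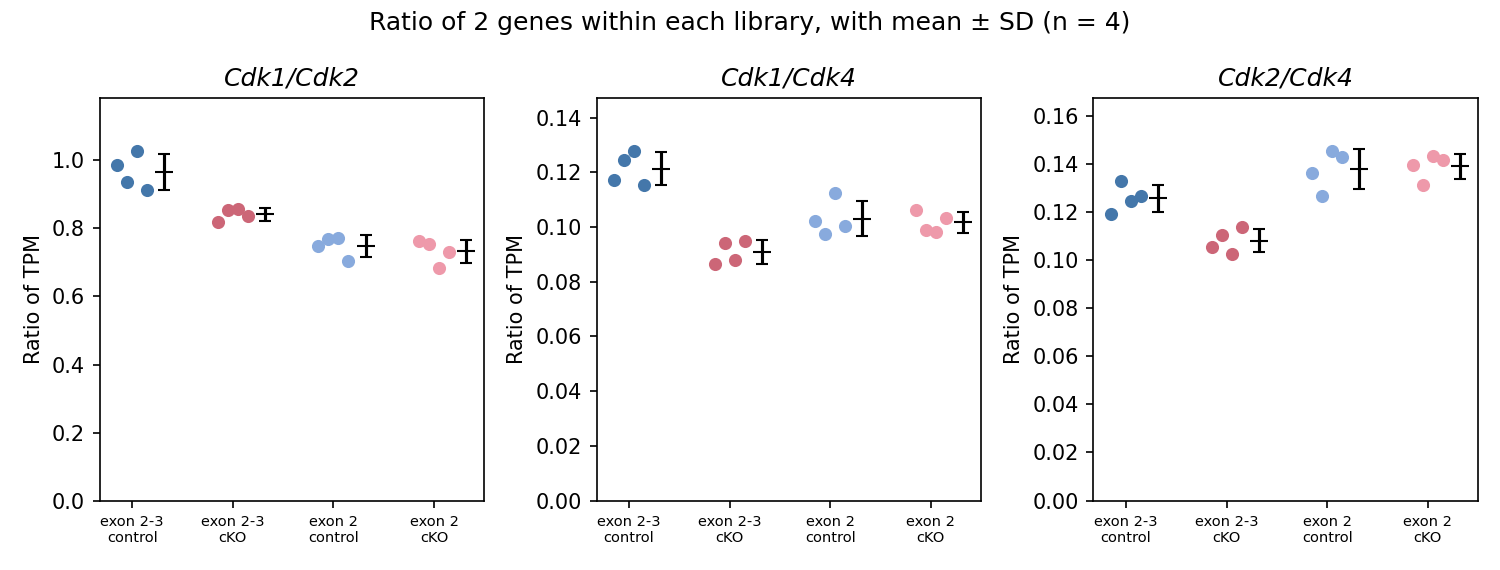
Ratio of TPM values between pairs of kinases in each library (points) of the 4 groups, with mean and SD (n = 4) and vertical axes from 0. In the exon 2-3 line all 3 ratios are lower in every cKO library than in every control, and in the exon 2 line cKO and control overlap.

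The same comparison was made across all genes by subtracting the log2 value of one kinase from every gene of a library. Relative to Cdk4, Cdk1 was lower in the exon 2-3 line with a log2 difference of −0.41 (SE 0.051, limma adjusted p = 0.00165) and Cdk2 with −0.21 (SE 0.049, limma adjusted p = 0.0249), where 3.55% of genes were called lower. Relative to Cdk2, Cdk1 was lower with −0.19 (SE 0.045, 95% interval −0.30 to −0.092, limma adjusted p = 0.00643), where 1.03% of genes were called lower. Cdk4 relative to Cdk2 stood at 0.21 (SE 0.051, limma adjusted p = 0.00717) and E2f7 at 0.21 (SE 0.080, limma adjusted p = 0.0452), but 57.8% of all genes were called higher relative to Cdk2, so these calls say little of Cdk4 and E2f7. That share also lowers the adjusted p of every gene in this fit, and the unadjusted limma p for Cdk1 was 0.00189. Thus Cdk1 differed from both steadier kinases in that line, and its distance from Cdk4 was the greater in value.

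No such difference was seen in the exon 2 line. There Cdk1 over Cdk2 was 0.749 ± 0.0316 in controls and 0.733 ± 0.0346 in cKO libraries (SD, n = 4; two-sided exact permutation p = 0.514), and Cdk1 over Cdk4 was 0.103 ± 0.00644 and 0.102 ± 0.00391 (SD, n = 4; two-sided exact permutation p = 0.771). The log2 interval was −0.15 to 0.086 for Cdk1 relative to Cdk2 and −0.15 to 0.11 relative to Cdk4. In these fits 0.0764% of genes were called relative to Cdk2 and 0.115% relative to Cdk4. The difference between the lines was −0.39 for Cdk1 relative to Cdk4 (limma adjusted p = 0.0100; 0.802% of genes called more negative). It was −0.16 for Cdk1 relative to Cdk2 (95% interval −0.31 to −0.022, limma adjusted p = 0.0571; 0.42% called) and was not called. The difference between the lines for Cdk4 against Cdk2 gave an adjusted p that depended on the gene subtracted: 0.0267 with Cdk2 subtracted, where 42.8% of genes were called more positive and the call was lost in 3 of 16 fits without 1 library, and 0.120 with Cdk4 subtracted (both limma).

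The control hearts of the lines differed in Cdk1 and E2f7, in opposite directions. Control Cdk1 was 1.30 times as high in the exon 2-3 line as in the exon 2 line (log2 difference 0.37, SE 0.050, limma adjusted p = 1.50e-05), and the groups did not overlap. Control E2f7 was 0.663 times as high (log2 difference −0.55, SE 0.084, limma adjusted p = 6.04e-05), again without overlap. The share of all genes without overlap between the controls is not given here, so the lack of overlap says little of Cdk1 and E2f7. In TPM the exon 2-3 cKO, at 51.1 for Cdk1, lay near the exon 2 controls (52.4) and cKO (51.9). This comparison runs across the batches and depends on the scaling: after median centring the controls differed by 0.56, and the cKO difference of the exon 2-3 line was −0.46. Cdk2 differed little between the controls (0.013, limma adjusted p = 0.865), and Cdk4 stood at 0.15 (95% interval 0.014 to 0.28, limma adjusted p = 0.0596). A large part of all genes differed in this comparison, 14.4% called higher and 38.1% lower, with a median difference of −0.14 over all genes; of the calls, 27.5% were higher, against 39.9% after quantile normalisation and 57.7% after median centring. With each library centred on its median gene, Cdk1 was at 0.56 and E2f7 at −0.37, both still called, while Cdk2 (0.19) and Cdk4 (0.33) were called as well. After quantile normalisation Cdk4 was at −0.018 in this comparison.

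Genes that act with the 4 were taken from lists of pathway members. These lists were chosen with earlier results of these data known, so their counts describe and do not test. In the exon 2-3 line 6.72% of all genes were called, 4.16% as higher. Of 17 other cyclin-dependent kinases, 5 were held and 4 tested, and none was called in the exon 2-3 line; the median log2 difference was 0.13, against 0.032 over all genes. Cdk12, a kinase of RNA polymerase II elongation, had 9.69 TPM in controls and 11.2 in cKO libraries (limma adjusted p = 0.518). Of 5 cyclins and partners tested, 1 was called: Ccng1, cyclin G1, a p53 target, rose from 95.4 ± 1.91 to 275 ± 11.3 TPM (SD, n = 4; log2 difference 1.52, limma adjusted p = 5.32e-08). The D-, E-, A- and B-type cyclins that activate these kinases were not analysed here. Of 3 inhibitors and regulators tested, Btg2, an antiproliferative p53 target, rose from 22.1 to 39.8 TPM (limma adjusted p = 0.000107). Of the E2F and DREAM list 2 were tested: Lin9, a core subunit of DREAM, had a difference of −0.22 (limma adjusted p = 0.145), and Mybl1 rose from 1.55 to 2.37 TPM (limma adjusted p = 0.0438), a call lost when any 1 of the 8 libraries was left out.

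Genes of the phases the kinases drive lay lower together with Cdk1. Of 11 G2 and M phase genes tested, 6 were called lower in the exon 2-3 line and none higher, against 2.56% of all genes called lower. All 11 differences were negative, against 41.5% of all genes, with a median of −0.35. Pimreg, a mitotic regulator, fell from 70.5 ± 5.97 to 48.6 ± 1.24 TPM (log2 −0.52, limma adjusted p = 0.00173). Top2a, the topoisomerase that untangles chromosomes, fell from 146 ± 9.07 to 107 ± 4.24 TPM (log2 −0.44, limma adjusted p = 0.00213). Nuf2, a kinetochore subunit, fell from 33.2 ± 1.14 to 24.9 ± 1.22 TPM (log2 −0.40, limma adjusted p = 0.00379). Cenpf (−0.43), Nek2 (−0.43) and Hmmr (−0.35), which act at centromeres, centrosomes and the spindle, fell as well, and the call of Hmmr was lost in 3 of 8 fits that left out 1 library. Top2a, Pimreg and Nek2 each overlap another gene held that averaged under 1 TPM.

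Of 6 S phase genes tested, 2 were called lower and none higher, against 2.56% of all genes called lower. All 6 differences were negative, with a median of −0.25. Prim1, the primase subunit, fell from 42.9 to 33.0 TPM (limma adjusted p = 0.0197), and Cdc6, a replication licensing factor, from 14.9 to 10.8 TPM (limma adjusted p = 0.0244). These calls were lost in 4 and 5 of the 8 fits without 1 library. Of 13 p53 target genes tested, 10 were called higher and none lower in this line, against 4.16% of all genes called higher. Of their differences 11 were positive and 2 negative, with a median of 0.60. Zfp365, one of the 10, averaged 0.614 TPM in the controls of this line and 4.08 TPM in its cKO. It averaged under 1 TPM in both exon 2 groups, so it passed the filter only through the group where it was high. Without it 9 of 12 were called higher, with a median of 0.57. Ccng1 and Btg2 are also among these; the others include Phlda3, an inhibitor of Akt, at 1.13 and Mdm2, the p53 ubiquitin ligase, at 0.35, the latter lost in 6 of 8 such fits. No gene of these lists was called in the exon 2 line, where the medians were 0.0013 for G2 and M phase, −0.021 for S phase and 0.014 for p53 targets. The effects in the lines differed for 3 of the 11 G2 and M phase genes, Top2a, Nuf2 and Pimreg. All 3 were more negative in the exon 2-3 line, a call made for 0.763% of all genes. Upstream windows were found for 9 of the G2 and M phase genes, of which 4 held a CHR match (Top2a, Tmpo, Lbr and Gas2l3), and for 5 S phase genes, of which none did. Only Top2a of these 4 was called in the exon 2-3 line, and the other called G2 and M phase genes with a window, Nuf2, Cenpf, Hmmr and Nek2, had no match, which is 1 of 5; taken per gene, 19.6% of all genes had one.

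**Figure D4:**
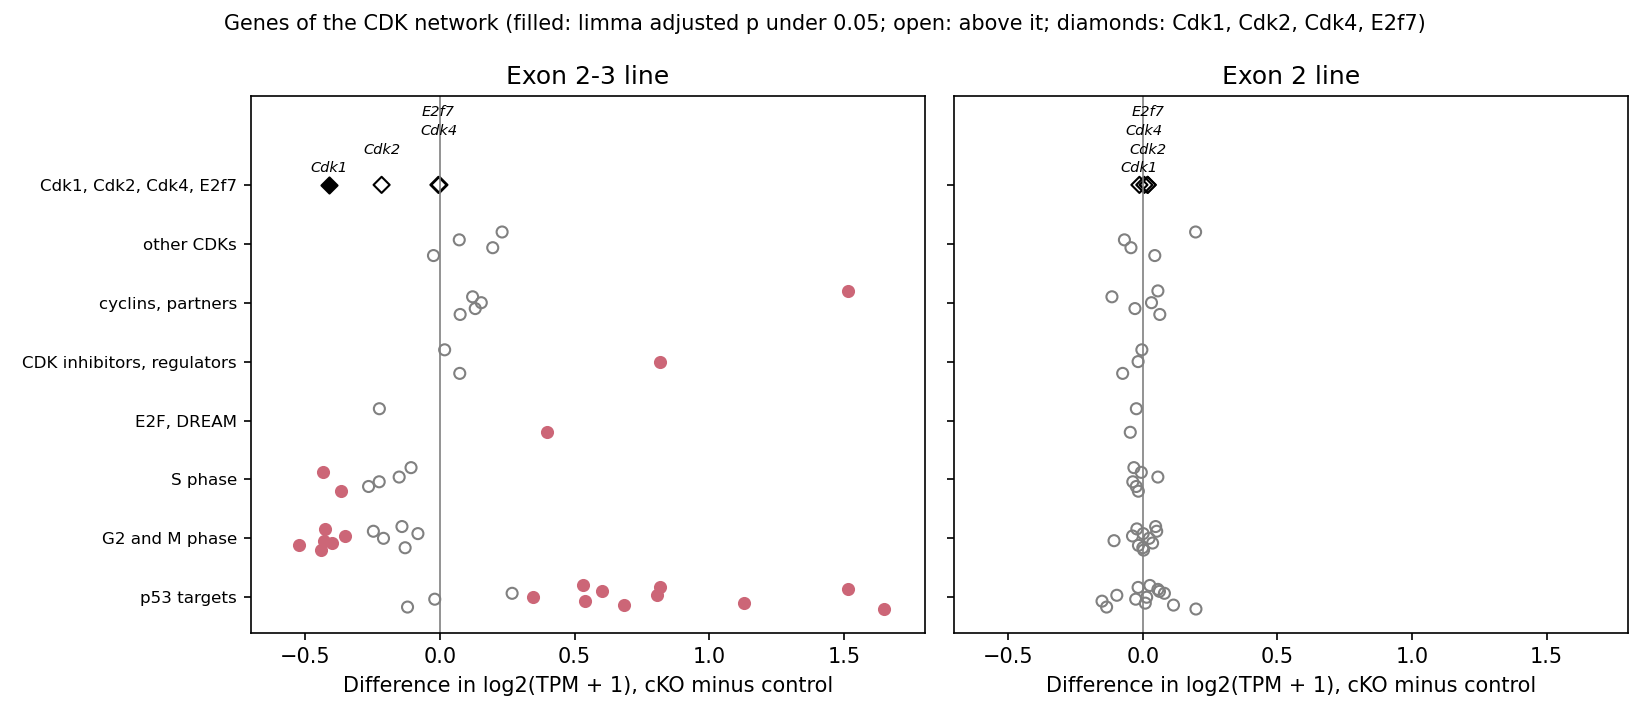
Difference in log2(TPM + 1), cKO minus control, for each gene tested of 7 lists (circles) and for the 4 genes (diamonds), by line; filled symbols have a limma adjusted p under 0.05. Cdk1 at −0.41 lies among the G2 and M phase genes, whose median is −0.35, and all symbols of the exon 2 line are open.

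Genes were also ranked by how closely their pattern over the 16 libraries followed each of the 4, as the root mean square difference in log2 after subtracting the control mean of the line. The 5 closest to Cdk1 were Top2a (0.0675), Fbxo5 (0.0682), Nuf2 (0.0694), Sphkap (0.0704) and Spdl1 (0.0710), against a median of 0.264 over all genes. Fbxo5 encodes Emi1, an inhibitor of the anaphase-promoting complex, and Spdl1 a kinetochore protein. Closest to Cdk2 were Nup107, a nuclear pore subunit (0.0459), Rpa1, a single-stranded DNA binding protein of replication (0.0512), and Lta4h (0.0521), against a median of 0.189. Closest to Cdk4 were Ftsj3 (0.0377), Glod4 (0.0391) and Nop58 (0.0395), against a median of 0.150. Of these Ftsj3 and Nop58 act in ribosome production. Closest to E2f7 were Acly (0.0616), Ppp1r15b (0.0656), Kctd3 (0.0697) and Dnajb12 (0.0702), against a median of 0.158. Cdk4 and E2f7 hardly changed in either line, so by this measure their neighbours are other genes that hardly changed. Their closeness says nothing of a shared function. Top2a, Sphkap, Rpa1, Ftsj3, Nop58, Acly and Dnajb12 each overlap another gene held, which for Ftsj3 is Ddx42 at a mean of 44 TPM.

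Some cell type markers moved in the exon 2-3 line too. Over 6 of 14 epicardial and mesenchymal markers held, the summed level ranged from 325 to 370 TPM in controls and from 481 to 527 TPM in cKO libraries of that line. There 5 of 6 were called higher, against 4.16% of all genes. In the exon 2 line the sum ranged from 477 to 653 and from 460 to 595 TPM. The 6 of 19 cardiomyocyte markers held summed to 16997 to 18467 TPM in controls and 16492 to 17479 TPM in cKO libraries of the exon 2-3 line. In the exon 2 line they summed to 12510 to 14607 and 12886 to 13975 TPM, below every library of the exon 2-3 line. The sum is made up mostly of Myl4, Tnnt2, Myl7 and Tnni1. Control means of Pln (656 against 624 TPM) and Hand1 (67.6 against 62.7 TPM) were higher in the exon 2 line. Of these 6 markers only Hand1, a ventricular transcription factor, was called in the exon 2-3 line, as lower (log2 −0.60, limma adjusted p = 0.00573). The median log2 difference of the 6 was −0.043, and 2.56% of all genes were called lower. Hand1 overlaps Gm32915, at a mean of 3.73 TPM. Endothelial markers (3 of 14 held) ranged from 193 to 251 and 223 to 264 TPM in controls and cKO libraries of the exon 2-3 line. Myeloid markers (5 of 10 held) ranged from 86.5 to 88.5 and 75.1 to 87.7 TPM there, a sum made up mostly of Lyz2 (means 80.3 and 70.3 TPM). Of the 3 myeloid markers tested none was called, and Lyz2 (−0.19) was opposite in sign to Cd68 (0.39) and Fcer1g (0.24). Erythroid markers (4 of 13 held) ranged from 2995 to 4554 TPM in controls and from 1512 to 11293 TPM in cKO libraries, highest in cKO replicate 4, which also had the highest Cdk1 and Cdk2 of its group. No held marker was at 0 throughout a group. The part of these shifts in the change of Cdk1, or in the differences between the control hearts, was not tested.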

How the data were processed

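Ventricular RNA of 16 libraries in 4 groups of 4 was analysed from TPM values deposited by the authors. The submitters' processing notes name FastQC, Trim Galore 0.6.7, HISAT2 2.2.1, StringTie 2.2.1, featureCounts, DESeq2 and GRCm38, with no role or order; the tool that made the TPM values is not given in the sources used here. The labels' protocols hold a stranded mRNA and an rRNA-depletion library description, and the extraction text names another tissue, cortical neurons. The 5921 rows used (chromosomes 1, 10 and part of 11; 1 incomplete row was left out) hold 15.2% to 17.1% of the TPM total of each library, with 4505 to 4873 genes above 0; TPM keeps no depth. Chromosomes beyond these were not analysed here.

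Tests covered genes averaging 1 TPM or more, on log2(TPM + 1) with limma 3.58.1 (intensity trend, Benjamini-Hochberg adjustment over all 2620 genes, threshold 0.05), each line on its own 8 libraries, and line differences in a model of 4 group means over 16. Ratios were tested by exact permutation. The fit was tested on simulated data. Library numbers were not used as pairs in the main tests, and no identical libraries were found. Pattern neighbours were the 5 closest genes for Cdk1 and E2f7 and the 3 closest for Cdk2 and Cdk4, of which 1 is not reported here; other genes are named for passing the test within a list or for their role. List counts without genes under 1 TPM in any group were added after seeing the data. The genes and lists were chosen with earlier results of these data known.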

Additional observations from a re-analysis of the deposited data

Results flagged for a closer look

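The cKO effect on Cdk1 differed between the lines by −0.40 in log2 in a test of the difference itself (limma adjusted p = 0.00437), with −0.41 in the exon 2-3 line and −0.013 in the exon 2 line. Taken relative to Cdk4 the difference between the lines was −0.39 for Cdk1 (limma adjusted p = 0.0100). For Cdk4 relative to Cdk2 it was 0.23 (limma adjusted p = 0.0267), a call that comes with 42.8% of all genes called the same way and that was lost in 3 of 16 fits without 1 library (limma adjusted p up to 0.0579). Line and batch cannot be told apart in any of these.

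The Cdk2 value of exon 2-3 cKO replicate 4, 64.7 TPM, stood apart from the other 3 libraries of its group, which lay between 58.7 and 59.7 TPM. It was the only one so marked among 16 combinations of gene and group, and chance marks about 1 in 20. Without it the log2 difference of Cdk2 in that line was −0.25 (limma adjusted p = 0.0762).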

How the results depend on the processing

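Differences are in log2, and adjusted p-values are from limma. Cdk1 in the exon 2-3 line was called under each of the 18 alternatives, from −0.44 to −0.39 with any 1 library left out, and its difference between the lines under each of the 25. The difference between the lines cannot be told apart from the batch. TPM keeps no depth, so counting error is unknown. The library numbers were not used as pairs in the main tests. Between cKO and control libraries of the same number, the correlation of deviations ran from −0.029 to 0.21 for exon 2-3 and from 0.064 to 0.20 for exon 2. Between libraries of different number it ran from −0.30 to 0.20 and from −0.12 to 0.079. In the exon 2 line every cKO library correlated most with the control of its own number, so pairing there is not settled. With a replicate block the exon 2-3 line gave 149 called genes and Cdk2 −0.22 (limma adjusted p = 0.0656), and no call on the 4 genes changed. The cause was not tested for any change listed here.

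Cdk2 in the exon 2-3 line was called after quantile normalisation (−0.22), median centring (−0.27), one fit over both lines (−0.22) and array weights (−0.25), and ran from −0.26 (without control 3) to −0.18 with 1 library left out. Its difference between the lines was called after quantile normalisation (−0.27), median centring (−0.29) and array weights (−0.28). Between controls, median centring gave calls for Cdk2 (0.19) and Cdk4 (0.33), array weights for Cdk4 (0.17), and quantile normalisation put Cdk4 at −0.018; with 1 library left out Cdk4 ran from 0.12 to 0.19, called without exon 2-3 control 3 (limma adjusted p = 0.0225), and Cdk2 from −0.020 to 0.057.

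Values near 0 turned sign. Cdk4 in the exon 2-3 line was 0.058 after quantile normalisation and 0.00044 without hemoglobin genes, and its difference between the lines 0.043 after quantile normalisation. Only the hemoglobin genes held could be left out, and these include no beta globin. In the exon 2 line Cdk1 was 0.00037 after quantile normalisation and 0.013 with array weights, and E2f7 −0.0047 with array weights. With 1 library left out, the exon 2-3 line gave E2f7 from −0.074 to 0.077 and Cdk4 from −0.042 to 0.028; the exon 2 line gave Cdk1 from −0.048 to 0.012, E2f7 from −0.013 to 0.043, Cdk4 from −0.028 to 0.048 and Cdk2 from −0.021 to 0.057; and the difference between the lines E2f7 from −0.093 to 0.059 and Cdk4 from −0.049 to 0.026.

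Relative to Cdk2 in the exon 2-3 line, E2f7 lost its call with a pseudocount of 0.1 (0.21), quantile normalisation (0.18) and array weights (0.20), and in 7 of 8 fits without 1 library (0.18 to 0.23), but not without control replicate 2 (0.28). The exact test, which cannot pass here, gave −0.20 for Cdk1 and 0.22 for Cdk4 relative to Cdk2 and −0.42 for Cdk1 relative to Cdk4. In the exon 2 line E2f7 relative to Cdk2 was −0.023 after quantile normalisation and −0.042 with array weights, and Cdk4 0.017 with array weights. With 1 library left out there, Cdk1 relative to Cdk2 ran from −0.059 to 0.0015, E2f7 from −0.044 to 0.031 and Cdk4 from −0.039 to 0.027. The difference between the lines relative to Cdk2 was called with array weights for Cdk1 (−0.18) and E2f7 (0.24); with 1 library left out Cdk1 ran from −0.20 to −0.13, E2f7 from 0.18 to 0.28 and Cdk4 from 0.19 to 0.25. Cdk1 gained the call without exon 2-3 control 4 or exon 2 cKO 3 (limma adjusted p 0.0368 and 0.0309), E2f7 without exon 2-3 control 2 or exon 2 cKO 1 (0.0261 and 0.0452), and Cdk4 lost it without exon 2-3 control 2, exon 2-3 cKO 3 or exon 2 cKO 3 (0.0579, 0.0562 and 0.0528). Relative to Cdk4, array weights put E2f7 at 0.0093 for exon 2-3, −0.066 for exon 2 and 0.074 between the lines; with 1 library left out E2f7 ran from −0.050 to 0.090, from −0.037 to 0.061 and from −0.064 to 0.077 in these, and Cdk1 from −0.044 to 0.023 in the exon 2 line.

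Called genes in the exon 2-3 line numbered 176, against 95 with no filter on low values, 311 after quantile normalisation, 343 after median centring, 265 with array weights and 70 to 190 with 1 library left out, lowest without cKO replicate 3. The exon 2 line gave 2, against 4 in one fit over both lines and 2 to 4 with 1 library left out, most without control replicate 3. The difference between the lines gave 62, against 133, 127 and 136 after quantile normalisation, median centring and array weights, and 36 to 84 with 1 library left out.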
